A study of Mus musculus with 3 samples.

Results

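The proteasome genes of mouse aortic endothelial cells were described across 3 RNA-seq libraries. They were taken by name: every protein-coding gene of the deposited count table whose symbol begins with Psma to Psmg and a digit. This gave 48 of the 18287 listed genes, all of them present in the deposited table for glucose oxidase as well. Of these, 5 are called inducible here (Psmb8, Psmb9, Psmb10, Psme1 and Psme2) and the other 43 constitutive. The name rule also caught Psmc3ip, a meiotic recombination cofactor that is no proteasome subunit, and Psme2b, an intronless gene nearly identical to Psme2.

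The proteasome degrades proteins tagged with ubiquitin. Its 20S core is a barrel of alpha and beta rings, and the active sites lie on 3 of the beta subunits, encoded by Psmb5, Psmb6 and Psmb7. The 19S cap binds ubiquitin chains, unfolds the substrate with a ring of ATPases and feeds it into the core. Interferons induce Psmb8, Psmb9 and Psmb10, which take the place of the constitutive active subunits in newly made cores, called immunoproteasomes. Psme1 and Psme2 encode the interferon-induced PA28 activator, and the cores so formed are known for supplying peptides to MHC class I. Oxidants are known to damage proteins that the proteasome then clears.

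The cells were a purchased primary culture of endothelial cells from mouse aorta, whose strain, age and sex are not in the labels used here. One library is labelled control, with no treatment of its own in its label. Another is from cells exposed for 30 min to 5 mU/mL of glucose oxidase, which generates hydrogen peroxide. In the last, the cells had the same glucose oxidase exposure together with 0.2 mM of ethyl-2-hydroxybenzylamine (Et2HOBA), a scavenger of reactive isolevuglandins, for 24 h. Which exposure came first is not stated, and Et2HOBA by itself was not analysed here. Since 24 h is labelled for the combination only, any difference in time in culture cannot be told apart from Et2HOBA. Each group had 1 library, so differences have no replicate check and conditions could not be tested against each other. The 95% intervals below are exact Clopper-Pearson intervals on reads, which cover counting error only and compare libraries.

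Over the listed genes the libraries held 35005089 to 40212212 reads, and the proteasome genes took 0.540% to 0.581% of them. A normalized count is the read count divided by a size factor for the library. A log2 ratio compares normalized counts after 10 is added to each, and a fold is given without that addition. All 10 endothelial markers were listed, and their summed normalized count was 348902 in control, 222288 with glucose oxidase alone and 201919 in the combination. Emcn was above control in both treated libraries, at log2 ratios of 0.33 and 0.55, and Cdh5 in the combination, at 0.19, while Tek was lowest there, at -2.01. Of the leukocyte markers 3 of 8 were listed, without Ptprc or Itgam, and their sum of 8146, 17771 and 26858 was almost all Cd68. Lyz2 went the other way, with 186, 76 and 86 reads. Of 5 fibroblast markers 3 were listed, without Dcn and Lum, and their sum of 133, 1416 and 2738 was mostly Pdgfra. The others did not follow it, Col1a1 with 28, 30 and 23 reads and Col3a1 with 2, 12 and 0. The sum of the 5 listed of 6 smooth muscle markers was 4859, 3717 and 3943, mostly Smtn, while Myh11 was higher in the treated libraries, with 19, 35 and 73 reads. The part of these shifts in the proteasome values was not tested, and fewer cells of a type cannot be told apart from less RNA per cell.

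All 5 inducible genes stood below control after glucose oxidase and lower still in the library that also received Et2HOBA. Psmb8 (ENSMUSG00000024338.15, chromosome 17, 34197721 to 34201454), the immunoproteasome subunit that replaces the Psmb5 product, had 292 reads in control, 109 with glucose oxidase alone and 50 in the combination. Against control this was a level of 0.399 (95% interval 0.317 to 0.499) and of 0.170 (0.123 to 0.230). Psmb8 had the lowest log2 ratio of all 48 genes in each of the 3 comparisons, at -1.25, -2.33 and, with Et2HOBA against glucose oxidase alone, -1.08. In the authors' deposited tables, whose log2 scale shrinks differences at low counts, Psmb8 stood at -0.73 for glucose oxidase and -1.72 for the combination.

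Psmb9 (ENSMUSG00000096727.3, chromosome 17, 34181987 to 34187764), the inducible counterpart of Psmb6, had 259, 118 and 55 reads in the same order. Its level was 0.487 of control after glucose oxidase (0.388 to 0.608) and 0.211 with Et2HOBA (0.155 to 0.283). Psmb9 and Psmb8 lie 9956 bases apart in the MHC region, with the peptide transporter gene Tap1 between them. Tap1 overlaps the 5′ end of Psmb9 by 212 bases on the other strand, and whether counting used strand is not given in the sources used here. Psmb10 (ENSMUSG00000031897.9, chromosome 8, 105935735 to 105938444), the counterpart of Psmb7, lies outside that region and had 1179, 673 and 383 reads. It stood at 0.610 of control after glucose oxidase (0.554 to 0.671) and at 0.323 with Et2HOBA (0.287 to 0.363).

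The PA28 genes were lower too, by smaller amounts. Psme1 (ENSMUSG00000022216.17, chromosome 14, 55578123 to 55581529) had 1866, 1264 and 1129 reads, which put it at 0.724 of control (0.674 to 0.778) and then 0.601 (0.558 to 0.648). Its neighbour Psme2 (ENSMUSG00000079197.10, chromosome 14, 55587441 to 55591113) had 2262, 1448 and 1289 reads, or 0.684 (0.640 to 0.731) and 0.566 of control (0.528 to 0.607). The intronless Psme2b had 242, 140 and 140 reads. Of the 50-base stretches in the longest transcript, Psme2 shares 59.3% and Psme2b 69.3% with other genes, mostly with each other, so reads may have been split between them. The sum of the 5 inducible genes, in normalized counts, was 5676 in control, 3742 with glucose oxidase alone and 2798 in the combination.

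**Figure D1:**
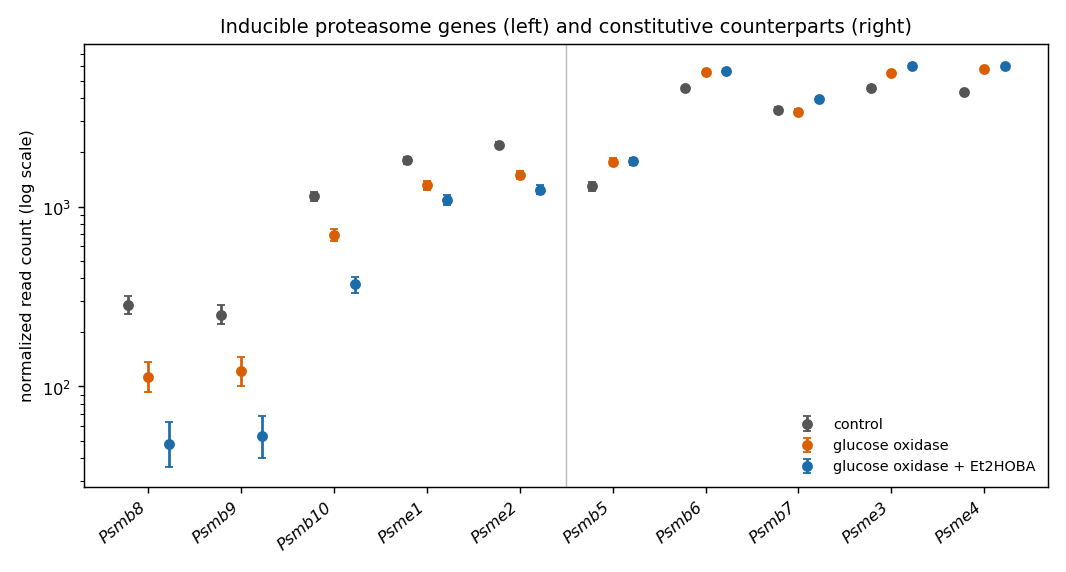
Normalized read count (log axis) of the 5 inducible genes and 5 constitutive counterparts in the 3 libraries, with exact Poisson 95% intervals for the reads. Each inducible gene steps down from control to glucose oxidase to the combination, while Psmb5, Psmb6, Psme3 and Psme4 are lowest in control.

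After glucose oxidase the 5 inducible genes had a median log2 ratio of -0.70, against -0.01 over all listed genes and 0.04 over protein-coding genes. One of them, Psmb8, was lower by at least 1 log2 unit, where 8.6% of all listed genes and 4.76% of protein-coding genes were. At a limit of 0.5 it was 4 of 5, all but Psme1, beside 20.3% of listed genes and 13.5% of protein-coding genes. Psmb9, at -0.98, lay just inside the limit of 1, and passed it with a pseudocount of 1, with total count scaling or with protein-coding size factors. With Et2HOBA the median against control was -1.61, beside -0.00 over all listed genes. Here 3 of 5 were lower past 1 log2 unit, namely Psmb8, Psmb9 and Psmb10, beside 8.04% of listed and 9.3% of protein-coding genes. All 5 were lower past 0.5, beside 20.9% of listed genes.

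Between the treated libraries the 5 genes had a median of -0.90, beside 0.00 over all listed genes, and 2 of 5 were lower past 1 log2 unit, where 2.15% of listed and 2.35% of protein-coding genes were. Psmb8 with Et2HOBA was at 0.426 of its level after glucose oxidase alone (0.299 to 0.601), Psmb9 at 0.433 (0.309 to 0.602) and Psmb10 at 0.529 (0.465 to 0.601). The PA28 genes stood nearer to each other in these libraries, Psme1 at 0.830 (0.765 to 0.900) and Psme2 at 0.827 (0.767 to 0.893). The catalytic subunits were thus further apart between the treated libraries than the activator genes, with intervals that do not overlap. Since the 2 comparisons against control share the control library, their values are given side by side only.

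A ratio of 2 genes within a library needs no scaling between libraries. Divided by the length of all annotated exons, Psmb10 stood at 0.663 of the level of Psmb7 in control (95% interval 0.620 to 0.708), at 0.417 after glucose oxidase (0.383 to 0.453) and at 0.188 with Et2HOBA (0.169 to 0.208). Psmb8 stood at 0.0582 of the level of Psmb5 (0.0511 to 0.0661), then 0.0169 (0.0138 to 0.0206) and 0.00717 (0.00530 to 0.00949). Psmb9 stood at 0.0283 of the level of Psmb6 (0.0249 to 0.0321), then 0.0112 (0.00924 to 0.0134) and 0.00481 (0.00362 to 0.00627).

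From control to the combined treatment the ratio was thus 8.12 times smaller for Psmb8 to Psmb5, 5.88 times for Psmb9 to Psmb6 and 3.53 times for Psmb10 to Psmb7. These changes do not depend on the length used, but the ratios themselves do. Per length of the principal transcript, a length chosen after the data were seen, Psmb10 stood at 0.292 of Psmb7 in control and Psmb8 at 0.121 of Psmb5. By either length the constitutive partner was the more abundant in every library, and Psmb10 was the inducible subunit nearest to its partner.

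**Figure D2:**
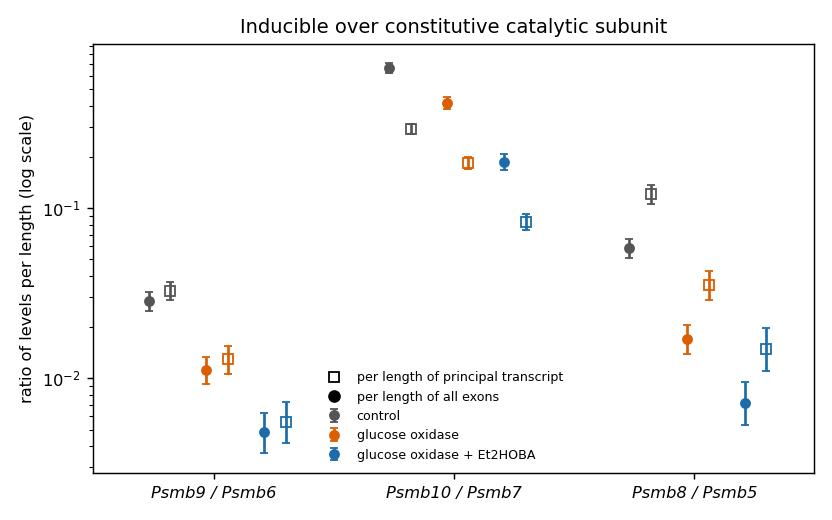
Ratio of each inducible catalytic subunit to its constitutive partner within a library (log axis), per length of all exons (filled circles) or of the principal transcript (open squares), with 95% counting intervals. In all 3 pairs the ratio is highest in control and lowest with Et2HOBA, from 0.663 to 0.188 for Psmb10 to Psmb7 per exon length.

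The constitutive partners did not share the lower levels. Psmb5 (ENSMUSG00000022193.7, chromosome 14, 54614119 to 54618022), the chymotrypsin-like subunit, had 1334, 1712 and 1855 reads and was 1.37-fold (1.28 to 1.47) and 1.38-fold (1.29 to 1.48) the control level. It shares 57.1% of its stretches with other genes, mostly processed pseudogenes, so its count depends on how shared reads were assigned. Psmb6, the caspase-like subunit, had 4681, 5398 and 5846 reads, or 1.23-fold and 1.24-fold of control. Psmb7, the trypsin-like subunit, had 3569, 3242 and 4094 reads, so it stood at 0.971 of control after glucose oxidase (0.926 to 1.02) and at 1.14-fold with Et2HOBA (1.09 to 1.19).

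Short sites in the promoter windows of these genes are shown for inducible genes that were below control and for counterparts (Psmb5, Psmb6 and Psme4) that were above it in both treated libraries. The windows run from 250 bases before to 50 after a RefSeq start (GRCm38.p6), and 41 of the 48 genes had one, all 5 inducible genes included. Both strands were searched for GAAA, any 2 bases and GAAA again, the core of the interferon-stimulated response element, for TTCNNNGAA, the gamma-activated site of interferon-gamma target genes, and for TGACNNNGC, the antioxidant response element bound by NFE2L1 and NFE2L2. The motifs do not contain one another. Capitals mark the match, and each site is printed along the strand of its gene.
Psmb8, chr17:34198088-34198116, plus strand, gamma-activated site: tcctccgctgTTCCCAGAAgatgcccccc
Psme1, chr14:55578493-55578522, plus strand, interferon-stimulated response element: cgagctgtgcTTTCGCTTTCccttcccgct
Psmb5, chr14:54618024-54618052, minus strand, antioxidant response element: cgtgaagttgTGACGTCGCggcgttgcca
Psmb6, chr11:70525338-70525366, plus strand, antioxidant response element: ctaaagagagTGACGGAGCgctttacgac
Psme4, chr11:30771758-30771786, plus strand, antioxidant response element: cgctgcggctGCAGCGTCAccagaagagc

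The interferon-stimulated element was found in 1 of the 5 inducible genes and in 4 of 36 constitutive genes (11.1%), beside 3.44% of all 32851 windows. A gene was counted when any of its windows held a match, whereas the shares over all are per window. The gamma-activated site was found in 1 of 5 and in 2 of 36 (5.56%), beside 8.30% of all windows. The antioxidant element was found in none of the 5 and in 6 of 36 (16.7%), beside 12.4% of all windows. These 6 were Psmb5, Psmb6, Psmc6, Psmd9, Psmd12 and Psme4. Psmd9, at log2 ratios of -0.04 and -0.18, and Psmd12, at -0.13 in both, stood below control. After glucose oxidase the counting interval of Psmd9 included no difference from control. The 4 constitutive genes with the interferon-stimulated element were Psmb3, Psmd4, Psmd9 and Psmg4. Of these, Psmb3 (0.43 and 0.46), Psmd4 (0.27 and 0.44) and Psmg4 (0.14 and 0.02) stood above control, but the counting intervals of Psmg4 included no difference. The 2 with the gamma-activated site, Psmd2 and Psmg1, were also above control. Of the counterparts without a printed site, Psme3 held no match and Psmb7 had no window. A match is a description of the letters and not of a bound site. Psmb9, Psmb10 and Psme2 held none of the 3 letter patterns in their windows.

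The 43 constitutive genes lay mostly a little above control. The median of their log2 ratios was 0.16 for glucose oxidase alone and 0.16 for the combination, and 36 and 35 of the 43 were above 0, beside 54.0% and 50.1% of protein-coding genes. None passed 1 log2 unit after glucose oxidase, where 12.7% of listed genes did in either direction, and 1 did with Et2HOBA, where 14.7% did. At 0.5 log2 units it was 4 and 6 of 43 in either direction, beside 33.8% and 40.1% of listed genes. After glucose oxidase 3 were higher and 1, Psme2b, lower. With Et2HOBA 4 were higher and 2, Psme2b and Psmc3ip, lower. Between the treated libraries the median was 0.02, 26 of 43 were above 0, beside 46.6% of protein-coding genes, and none passed 1 log2 unit, beside 8.55% of listed genes. Of the 13285 protein-coding genes, a smaller share passed it, 129 higher and 312 lower. Without Psme2b and Psmc3ip the medians were 0.17, 0.18 and 0.03, and 36, 35 and 26 of 41 lay above 0.

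The direction of such small differences depended on scaling. Total count scaling moved the median of all listed genes to -0.06 after glucose oxidase, to -0.13 with Et2HOBA and to -0.08 between the treated libraries. It left 27, 22 and 14 of the 43 constitutive genes above 0. Relative to the median of all listed genes under that scaling, 37, 31 and 23 of the 43 were above, compared with 38, 35 and 26 under the size factors used here.

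**Figure D3:**
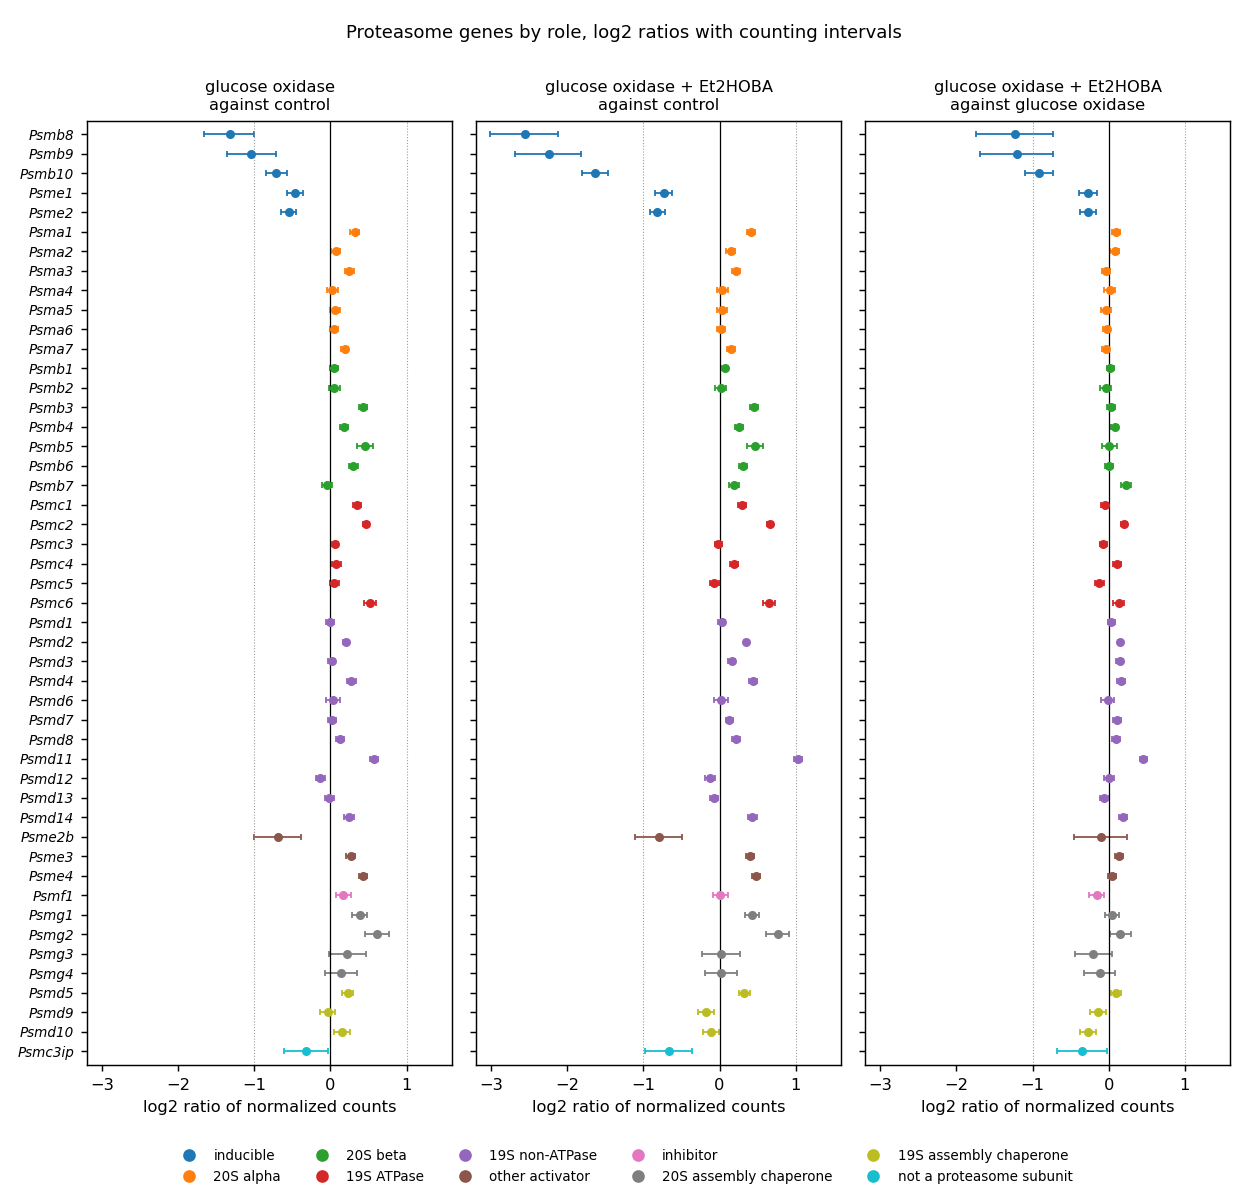
Log2 ratio of normalized counts (no pseudocount) for all 48 genes in the 3 comparisons, coloured by role, with 95% counting intervals; dotted lines mark 1 log2 unit. The 5 inducible genes lie left of 0 in every panel, and Psmd11 is the only constitutive gene at or beyond 1, with Et2HOBA against control.

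Among the 7 alpha subunits, which form the outer rings and the gate of the core, all 7 were above control with either treatment. The medians of the 7 were 0.07 and 0.14, and total count scaling left 5 and 2 of 7 above 0. Psma1 stood furthest out, with 4771, 5565 and 6406 reads and log2 ratios of 0.32 and 0.42. Psma6, with 6862, 6624 and 6987 reads, and Psma4, with 3189, 3027 and 3288, lay between 0.02 and 0.05 in both. Psma2, Psma3, Psma5 and Psma7 lay between 0.03 and 0.25. The counting intervals of Psma4, Psma5 and Psma6 included no difference from control in both comparisons.

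Of the 7 constitutive beta subunits, 6 were above control after glucose oxidase and 7 with Et2HOBA, with medians of 0.18 and 0.26 (4 and 5 of 7 with total count scaling). Psmb3, a structural subunit without an active site, had 4935, 6206 and 6824 reads and log2 ratios of 0.43 and 0.46. Psmb1 and Psmb2, also without active sites, lay between 0.01 and 0.07 in both comparisons, and Psmb4 stood at 0.18 and 0.26. For Psmb2 the counting intervals included no difference from control in both. The 14 core subunits summed to 64197 normalized counts in control, 72036 with glucose oxidase alone and 73345 in the combination.

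The 19S ATPases, the ring that unfolds substrates, differed among themselves. Psmc2 (ENSMUSG00000028932.7, chromosome 5, 21785283 to 21803787) had 7672, 9916 and 12249 reads, 1.38-fold (1.34 to 1.42) and 1.59-fold (1.54 to 1.63) of control. Psmc6 (ENSMUSG00000021832.8, chromosome 14, 45329788 to 45349705) had 2133, 2861 and 3377 reads, 1.43-fold (1.36 to 1.52) and 1.57-fold (1.49 to 1.66). Psmc1, with 5921, 7037 and 7317 reads, was 0.34 and 0.30 log2 units above control. Psmc3, Psmc4 and Psmc5 lay between -0.07 and 0.18 in both. All 6 were above control after glucose oxidase and 4 with Et2HOBA, or 4 in both with total count scaling. After glucose oxidase the counting interval of Psmc5 included no difference from control.

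Psmd11 (ENSMUSG00000017428.16, chromosome 11, 80428615 to 80473248), a lid subunit that helps hold the cap to the core, stood furthest above control of all 48 genes with Et2HOBA. It had 4637, 6462 and 9520 reads, 1.49-fold (1.43 to 1.55) and 2.04-fold (1.97 to 2.11) of control. It was also highest of the 48 between the treated libraries, at 1.37-fold (1.33 to 1.41). Its log2 ratio with Et2HOBA was 1.03, or 0.88 with total count scaling, which is under the limit, and 5.50% of its stretches are shared with other genes. It was the 1 constitutive gene of 43 higher by over 1 log2 unit there, beside 6.66% of listed genes.

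The other 10 non-ATPase subunits spread from below to above control. The ubiquitin receptor Psmd4 had 4485, 5072 and 6111 reads and the deubiquitinase Psmd14 had 3860, 4276 and 5240, with log2 ratios of 0.44 and 0.43 with Et2HOBA. Psmd2, the scaffold subunit with the most reads of all 48 genes, had 18098, 19430 and 23206. Psmd12, another lid subunit, had 4608, 3933 and 4248 reads, at 0.912 (0.874 to 0.952) and 0.916 of control (0.878 to 0.955). Psmd1, Psmd6 and Psmd13 lay between -0.07 and 0.03 in both comparisons, and Psmd3, Psmd7 and Psmd8 between 0.02 and 0.22. Counting intervals included no difference from control for Psmd1 and Psmd6 in both, and for Psmd3, Psmd7 and Psmd13 after glucose oxidase. Of all 11 non-ATPase subunits, 8 were above 0 after glucose oxidase and 9 with Et2HOBA, with medians of 0.03 and 0.16. Total count scaling left 5 and 6 of 11, turned the first median to -0.02 and put the second at 0.01, and protein-coding size factors turned the first to -0.01.

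The activators other than PA28 were above control. Psme3, a nuclear activator that works without ubiquitin, had 4711, 5307 and 6246 reads, 1.20-fold (1.16 to 1.25) and 1.32-fold (1.27 to 1.37). Psme4, the large activator known from DNA repair and histone turnover, had 4470, 5626 and 6263 reads, 1.35-fold (1.29 to 1.40) and 1.39-fold (1.34 to 1.45). Both differed in direction from Psme1 and Psme2 in each treated library. The inhibitor gene Psmf1 had 1760, 1851 and 1784 reads, so its level with Et2HOBA was 1.01-fold of control, and it lay below control with total count scaling, at a log2 ratio of -0.14.

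Genes for the assembly chaperones differed among themselves. Psmg1 and Psmg2 encode a pair that starts the alpha ring. Psmg2 (ENSMUSG00000024537.5, chromosome 18, 67641599 to 67654162) had 551, 789 and 942 reads, 1.53-fold (1.37 to 1.71) and 1.70-fold (1.53 to 1.89), and was the highest of the 48 genes after glucose oxidase. Psmg1 had 1518, 1855 and 2052 reads, 1.31-fold (1.22 to 1.40) and 1.34-fold (1.26 to 1.44). Psmg3 and Psmg4, which form the other pair, had 272, 297 and 278 reads and 379, 391 and 387, with log2 ratios of 0.02 each with Et2HOBA, both below 0 with total count scaling. For the chaperones of the 19S base, Psmd5 had 2909, 3180 and 3665 reads, whereas Psmd9 had 1736, 1582 and 1545 and Psmd10 had 1419, 1480 and 1320. Psmd10 was 0.27 log2 units lower with Et2HOBA than after glucose oxidase alone.

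The lowest constitutive genes in both comparisons with control were the pair that the name rule caught. Psme2b followed Psme2, with which it shares sequence, at log2 ratios of -0.66 and -0.76. Psmc3ip had 232, 174 and 147 reads and log2 ratios of -0.30 and -0.63. It was also the lowest constitutive gene between the treated libraries, at -0.33.

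Set against glucose oxidase alone, the combination left the constitutive genes close together, with log2 ratios from -0.33 for Psmc3ip to 0.45 for Psmd11. After Psmd11 the highest were Psmb7 at 0.23, Psmc2 at 0.20, Psmd14 at 0.19 and Psmd4 at 0.16. After Psmc3ip the lowest were Psmd10 at -0.27, Psmg3 at -0.19, Psmf1 at -0.16 and Psmd9 at -0.14. The 7 alpha subunits had a median of -0.03 with 3 above 0, the 7 beta subunits 0.02 with 6 above, the 6 ATPases 0.03 with 3 above and the 11 non-ATPase subunits 0.11 with 9 above. Total count scaling left 1, 1, 3 and 6 of these above 0, and turned the medians of the beta subunits and the ATPases below 0. The catalytic partners Psmb5 and Psmb6, at 0.01 each, and Psme4, at 0.05, also turned below 0 under that scaling. With the size factors used here, 23 of the 43 constitutive genes stood above control after glucose oxidase and higher still in the combination, 13 stood above control but had a lower ratio in the combination, and 7 were below control after glucose oxidase.

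Levels can be compared between genes only per length. Per kilobase of principal transcript, the constitutive core and cap subunits in control ran from 925 normalized counts for Psmc6 to 7315 for Psma7. The immunoproteasome genes Psmb8 and Psmb9 were lowest among the catalytic subunits, at 174 and 186, while Psmb10 stood at 871, Psme1 at 1626 and Psme2 at 2278. By this length Psmb5, at 1438 per kilobase in control, was the lowest of the 7 constitutive beta subunits. The order depends on the length used. Per kilobase of all exons Psmb7 stood lower in control, at 1011, while Psmc6 stood at 591, Psma7 at 2177 and Psma6 at 5388. Psmg3 (298), Psmf1 (448) and Psmg2 (504) were also low, and Psmd9, Psmd5, Psmg4 and Psme4 lay between 641 and 667.

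**Figure D4:**
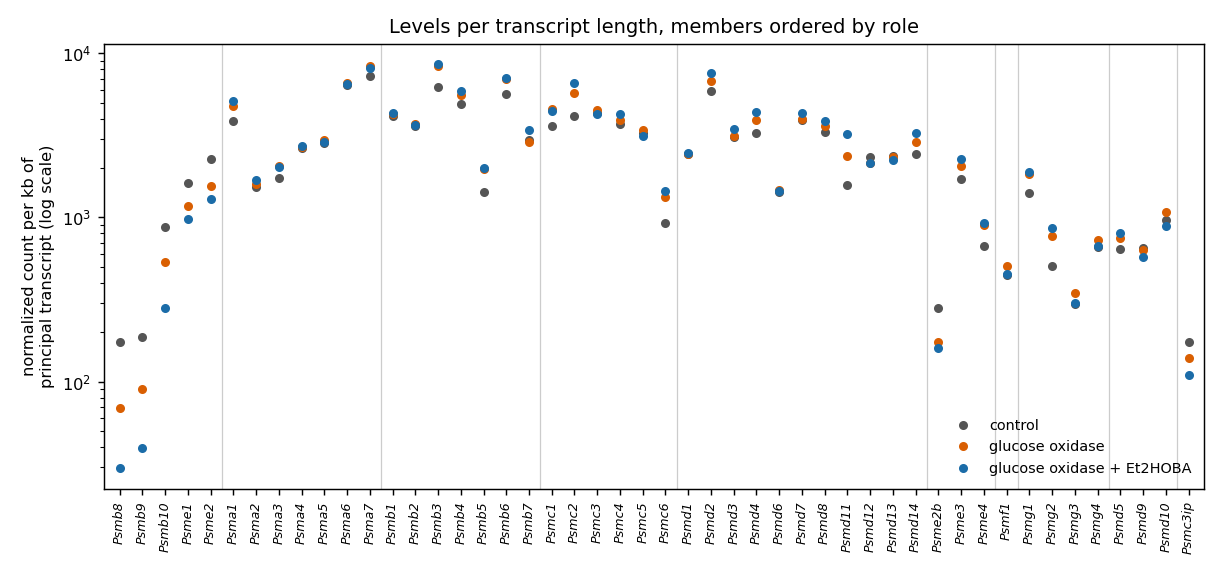
Normalized count per kilobase of principal transcript (log axis) for all 48 genes in the 3 libraries, grouped by role from inducible genes on the left to Psmc3ip on the right. By this length constitutive core and cap subunits lie at 925 or above in every library, and with Et2HOBA Psmb8 and Psmb9 lie lowest of all 48.

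A list of 25 genes of proteasome supply and ubiquitin handling was followed beside the subunits, all of them listed. None passed 1 log2 unit after glucose oxidase, beside 12.7% of listed genes, and 2 were higher and none lower with Et2HOBA, beside 6.66% and 8.04% of listed genes. The list's medians were 0.18 and 0.36. Nfe2l1, the transcription factor known to raise proteasome genes when proteasome activity falls short, had 18373, 27734 and 40130 reads and log2 ratios of 0.69 and 1.12, the second of which was 0.97 with total count scaling. Zfand2a, an arsenite-inducible proteasome-associated protein, had 3669, 6824 and 11595 reads, at 0.99 and 1.65. Ddi2, the protease that activates the Nfe2l1 product, stood at 0.33 and 0.54, and Ngly1, the glycanase of the same step, at -0.26 and -0.67. Nfe2l2, the related antioxidant factor, had 16468, 13495 and 12876 reads, and Pomp, the core maturation factor, had 5387, 5113 and 5444.

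The 23 genes of interferon signalling to the immunoproteasome and of peptide supply were also all listed, and the list's medians were -0.28 and -0.52. None passed 1 log2 unit after glucose oxidase, beside 12.7% of listed genes (2, both lower, with total count scaling, and 1, H2-K1, with protein-coding size factors), and 5 were lower and none higher with Et2HOBA, beside 8.04% and 6.66% of listed genes. Irf1, an interferon-induced activator of Psmb8 and Psmb9, had 1145, 845 and 452 reads, at -0.34 and -1.33, so its level with Et2HOBA was 0.99 log2 units under that after glucose oxidase alone. It was the lowest of the list there. The list's median between the treated libraries was -0.13, with 11 of 23 above 0 (8 with total count scaling), beside 46.6% of protein-coding genes. Tapbp, which holds MHC class I molecules to the peptide transporter, had 6185, 2980 and 2258 reads, at -0.95 and -1.46. The others past the limit were Irf9 (-1.07), Erap1 (-1.06) and H2-K1 (-1.09). H2-K1 had 741, 350 and 344 reads, whereas H2-D1, also of this list, had 20264, 17665 and 16164, at -0.10 and -0.34.

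Tap1 and Tap2, which flank Psmb8, differed less than it did, with 1366, 1070 and 955 reads and 950, 698 and 637. Their log2 ratios with Et2HOBA were -0.52 and -0.58. B2m, the MHC class I light chain, had 18973, 11594 and 12859 reads and was 0.04 log2 units above its glucose oxidase level with Et2HOBA. Jak2 stood apart at 0.63 and 0.91, and Irf8, from 97, 103 and 189 reads, at 0.17 and 0.88. Between the treated libraries no gene of the list passed 1 log2 unit in either direction, beside 2.15% of listed genes lower and 6.39% higher, and Irf1, at -0.99, passed it with total count scaling or a pseudocount of 1. Among the 13285 protein-coding genes, 312 were lower and 129 higher past that limit.

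**Figure D5:**
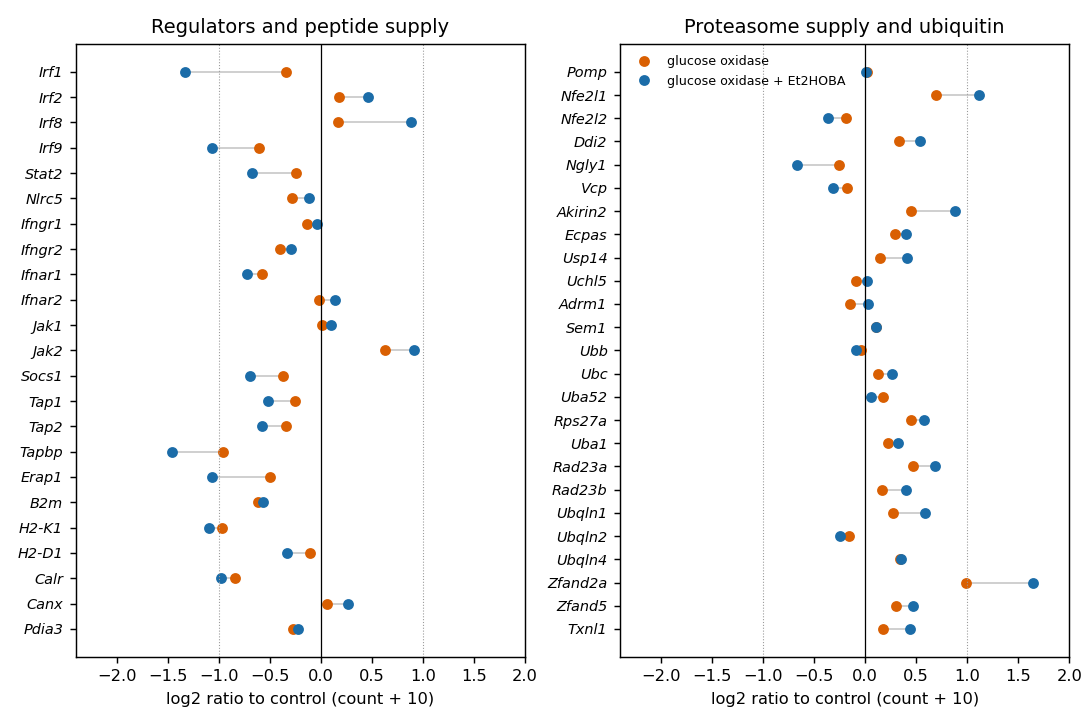
Log2 ratio to control (normalized count plus 10) of the 23 regulator and peptide supply genes (left) and the 25 proteasome supply and ubiquitin genes (right), after glucose oxidase (orange) and with Et2HOBA (blue); dotted lines mark 1 log2 unit. Tapbp lies lowest at -1.46 and Zfand2a highest at 1.65, both with Et2HOBA.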

How the data were processed

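Polyadenylated RNA of 3 cell cultures was sequenced with a stranded kit, per the labels' protocols. STAR, featureCounts and build mm10 are named in the submitters' processing notes, without versions. The authors deposited raw read counts of control and glucose oxidase plus Et2HOBA. The deposited log2 differences against control came without p-values, and how the log2 values were made is not given in the sources used here.

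For glucose oxidase alone, read counts were worked back from the deposited log2 differences. These match a variance-stabilizing curve (arcsinh of root counts), and solving it with the control counts gave values less than 0.01 from whole reads for 100% of the 18275 symbols matched, or for 3.31% with every control count raised by 1. A further 12 genes with shared listed names were placed by whole reads. The recovery was tested on simulated data.

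Normalized counts are reads over median-of-ratios size factors of the 3 libraries (1.03, 0.965 and 1.04 for control, glucose oxidase and the combination). No count model was fitted, as 1 library per group gives no spread. Limits of 1 and 0.5 log2 units are sizes, not tests. All 48 genes had the same ID version and position in GENCODE M21 and a mean normalized count of at least 10. A shared stretch is 50 bases found in a transcript of another gene, and 24 of the 48 had none. The members and lists were chosen with earlier results of these data known, and 1 gene of the interferon list is not reported here. Named genes are the inducible genes, their counterparts and the 5 highest and 5 lowest constitutive genes of each comparison. Other members named were chosen after their values were seen. Alternatives were total count scaling, TMM from edgeR 4.0.16, protein-coding size factors, a pseudocount of 1, the deposited scale, a filter on low counts, genes without shared stretches and other transcript lengths.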

Additional observations from a re-analysis of the deposited data

How the results depend on the processing

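No paired analysis was possible because each group has 1 library, and for the same reason no replicate could be left out. The lower level of all 5 inducible genes held in each of the 3 comparisons under every scaling and pseudocount run. Over all alternatives the medians ranged from -0.57 to -0.84 after glucose oxidase and from -1.48 to -1.83 with Et2HOBA. Both -0.84 and -1.83 are over Psmb9 and Psmb10 only, which share no stretch. Over all 5 genes the lowest medians were -0.76 and -1.75, with total count scaling. The number past 1 log2 unit after glucose oxidase was 2 with total count scaling, protein-coding size factors or a pseudocount of 1. It was 0 by the deposited log2 values and among the 2 genes without a shared stretch, and 4 at a limit of 0.5. With Et2HOBA it was 5 at that limit, and between the treated libraries 1 among the 2 genes without a shared stretch, where fewer genes were counted. For the constitutive genes, the limit of 0.5 gave 4 after glucose oxidase and 6 with Et2HOBA, in either direction. At the limit of 1, total count scaling, or leaving out genes with shared stretches, gave 0 with Et2HOBA, since Psmd11 dropped out. Total count scaling put the constitutive median with Et2HOBA at 0.0094 and turned that between the treated libraries to -0.0750, with the median of all genes at -0.13 and -0.08. In the regulator list, total count scaling gave 2 genes past the limit after glucose oxidase (1 with protein-coding size factors), 6 with Et2HOBA and 1 between the treated libraries, and in the supply list 1 with Et2HOBA. The deposited log2 scale could not be applied between the treated libraries, where that table lists none of the 48 genes.

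Pair ratios depended on the length used. With the longest transcript in control, glucose oxidase and the combination, Psmb9 to Psmb6 was 0.0185, 0.00732 and 0.00315, Psmb8 to Psmb5 was 0.103, 0.0300 and 0.0127, and Psmb10 to Psmb7 in control was 0.718. With the principal transcript, an alternative chosen after seeing the data, Psmb9 to Psmb6 in control was 0.0327, Psmb10 to Psmb7 was 0.292, 0.184 and 0.0828, and Psmb8 to Psmb5 was 0.121, 0.0352 and 0.0149. Depth limits Psmb8 and Psmb9 most, at 50 and 55 reads with Et2HOBA.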
